A study of Homo sapiens with 40 samples.

Results

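The 40 genes described here are genes of the cell cycle and of proliferation, and they were chosen by name from the 56568 gene names in the deposited tables. All 40 had a value above 0 in at least 1 library. They cover 2 proliferation markers, 5 cyclins, kinases and transcription factors of G1 and S phase, 3 inhibitors of cyclin-dependent kinases, 10 proteins of replication licensing and of the fork, 3 enzymes of nucleotide supply, 5 cyclins, kinases and phosphatases of G2 and M phase, 8 mitotic kinases, checkpoint and anaphase-promoting complex (APC/C) genes, and 4 spindle and kinetochore proteins.

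The libraries came from HepaRG, a human hepatic progenitor line that is differentiated in DMSO into hepatocyte-like and biliary-like cells, and RNA was depleted of ribosomal RNA before sequencing. There were 8 groups with 5 libraries each, and all of them, the controls included, were kept from day 8 to day 14 of culture in the same test medium with 2% serum and 1% DMSO. Beside the solvent control, 3 groups received PCB 126 (100 pM, 10 nM or 1 µM), 3 received glyphosate (10 µg/L, 1 mg/L or 0.1 g/L), and 1 received Roundup, a glyphosate-based herbicide, at 10 µg/L. PCB 126 is a dioxin-like polychlorinated biphenyl and a ligand of the aryl hydrocarbon receptor, and the comparison asks how levels changed over its concentrations. The same 5 control libraries served both chemical series. HepaRG is 1 cell line, and no label says that the 5 libraries of a group were separate cultures, so p values measure the spread between these libraries, which may be technical.

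Most cyclins, licensing factors and mitotic kinases are transcribed in a fixed order while a cell divides. E2F factors drive the genes of the G1 to S transition, and the MuvB complex with B-MYB and FOXM1 drives the mitotic genes. In cells that leave the cycle, the DREAM complex holds both sets down, while p21 and p27, the products of CDKN1A and CDKN1B, block cyclin-dependent kinases. Differentiated liver cells divide rarely, and HepaRG cultures are grown to confluence before differentiation.

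Levels are FPKM, fragment counts corrected for transcript length and for the size of the library, and they were added up over all transcripts with the same gene name. The 75th percentile of FPKM still ran from 2.47 to 5.05 over the libraries of the PCB 126 table, and the reported levels were not scaled for this. The deposited tables do not give the depth of the libraries and read numbers from other sources were not used, so no interval for counting error is given, and the 5 libraries per group set the precision. Hepatocyte markers were present in all 40 libraries, with a median level of 11240 FPKM for albumin (ALB). EPCAM, COL1A2, CD3E, CDH5 and CLEC4G had a median level of 0. Other biliary and mesenchymal markers were present, such as KRT19 (median 281.8 FPKM), CD24 (78.8), LUM (58.9) and COL3A1 (12.1). Some white blood cell and endothelial markers were above 0 in all 40 libraries too, such as LYZ (median 3.31 FPKM), CD14 (2.84), CD68 (0.86) and KDR (1.62). On the first principal component, which held 44.1% of the variance in the PCB 126 table, 5 libraries stood apart with scores above 30, namely control replicate 5, 10 nM replicates 3 and 5, and 1 µM replicates 1 and 5. In the glyphosate table (44.6%), these were control replicate 5, glyphosate 10 µg/L replicate 5, glyphosate 0.1 g/L replicate 2 and Roundup replicates 4 and 5. The labels give no replicate numbers. The numbers used here follow the order of the samples, and each number covers a run of consecutive library numbers. Replicate 5 recurs among the libraries that stood apart. The reported fit did not use these runs, and counts from a fit with a block for the run are given at the end.

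In control cells, CDKN1A had the highest level of the 40 genes, with a mean of 150.0 ± 41.04 FPKM (SD, n = 5). The sliding clamp PCNA followed with 49.5 ± 18.4 FPKM, the thymidylate synthase gene TYMS with 37.7 ± 13.2 and the ribonucleotide reductase subunit RRM2 with 37.4 ± 15.6, and these 3 did not differ beyond their spread. Topoisomerase TOP2A had a level of 24.3 ± 8.18 FPKM and MKI67, which encodes the Ki-67 antigen, 10.7 ± 3.24. At the other end, the E2 enzyme gene UBE2C had 0.176 ± 0.113 FPKM and cyclin gene CCNB2 0.112 ± 0.0136. Both are close to 0, whereas the related cyclin CCNB1 had 10.4 ± 3.19 FPKM. The tables do not show whether all fragments of CCNB2 and UBE2C were assigned to transcripts with these names, so their levels may be understated.

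Levels of the cell cycle genes were lower at 1 µM PCB 126 than in control for 35 of the 40 genes, and 79.2% of all genes tested were lower there too. Differences in this report are in mean log2(FPKM + 1), a scale that understates the change of low genes. Of the 40, 32 had an FPKM variance above 1 over the 20 libraries and were tested with limma among the 9755 genes of this kind, with Benjamini-Hochberg adjustment over all 9755 and a call at an adjusted p under 0.05. At 1 µM, 2 of the 32 fell, CENPF and KIF11, and none rose. Over all genes tested, 1.87% passed this threshold, 1.22% with a lower and 0.646% with a higher level. At an unadjusted p under 0.05, 19 of the 32 were lower, against 11.3% of all genes. The median difference of the 32 was -0.68 on the log2 scale, while the median of all genes tested was -0.26. Leaving out control replicate 5 raised the number that passed from 2 to 11, and leaving out control replicate 2 lowered it to 0. Without the 5 libraries that stood apart, 13 passed, all with a lower level, while calls over all genes went from 182 to 520. For single genes, all 40 included, exact permutation tests of 5 against 5 libraries are given, with p values not adjusted for the number of genes, and 20 of the 40 had such a p under 0.05 at 1 µM, all of them lower. Of these, 17 were among the 32 genes tested with limma, and over all 9755 genes 7.95% had such a p with a lower level.

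**Figure D1:**
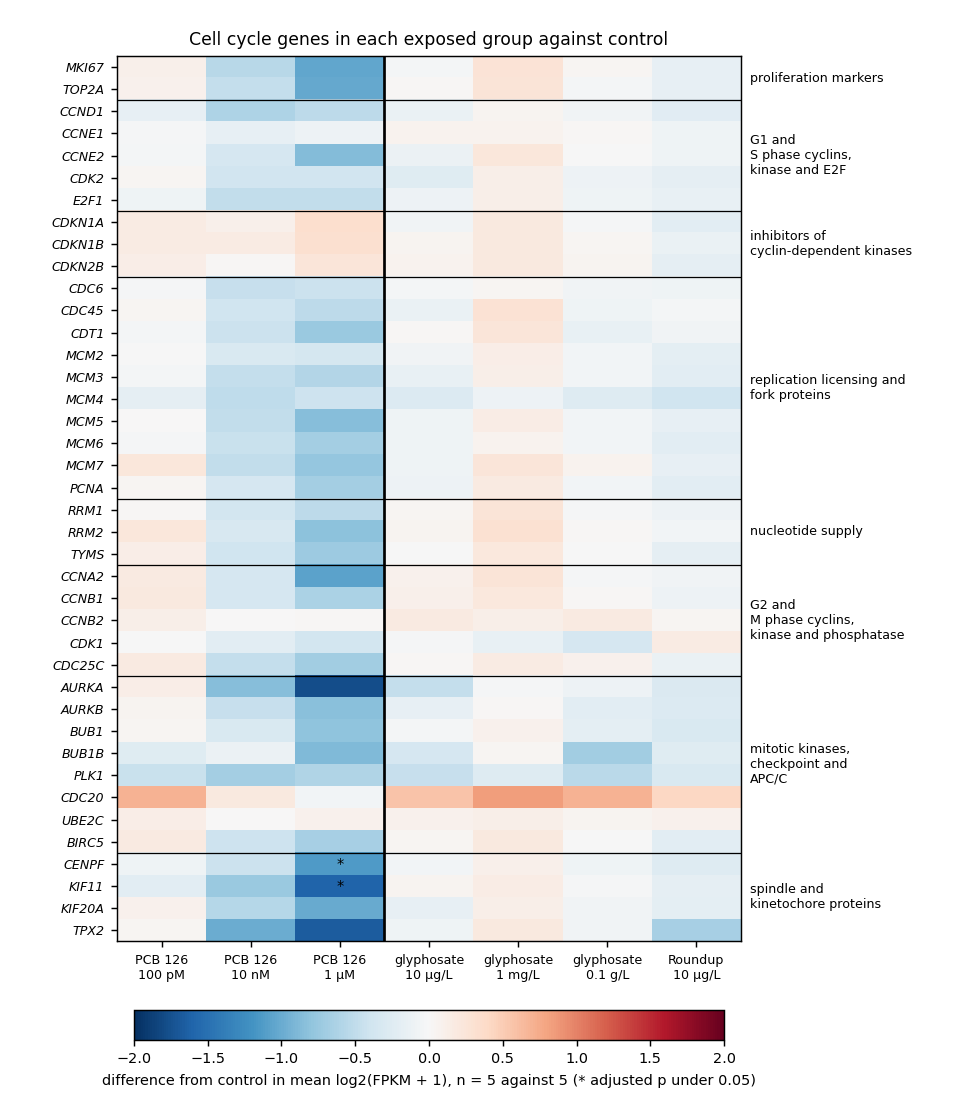
Heat map of the 40 cell cycle genes (rows, in 8 groups by role) in the 7 exposed groups (columns), coloured by the difference from control in mean log2(FPKM + 1), 5 libraries against 5. The 1 µM PCB 126 column is blue for 35 of 40 genes, the 3 inhibitors of cyclin-dependent kinases are red in it, and stars mark CENPF and KIF11, the only genes past the adjusted threshold there.

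A linear trend over the 4 PCB 126 steps (control, 100 pM, 10 nM and 1 µM, one unit per step) was tested in the same fit. Here 7 of the 32 genes fell past the threshold and none rose, against 3.7% of all genes in either direction, 2.82% with a falling and 0.882% with a rising trend. These were CENPF, KIF11, the mitotic kinases AURKA and AURKB, cyclin CCNA2, kinesin KIF20A and TOP2A. All act between S phase and cytokinesis. At an unadjusted p under 0.05 the count was 23, all falling, against 16.5% of all genes. With single libraries left out, the number that passed ran from 2 (without control replicate 1) to 21 (without control replicate 5), with 9 as the next highest, and without the 5 libraries that stood apart it was 15, of which 14 fell, while calls over all genes went from 361 to 563. In the F-test across the 4 groups, limma called none of the 32 (1.39% of all genes), and 17 had an unadjusted p under 0.05 (9.56% of all genes).

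CENPF encodes a large kinetochore and nuclear matrix protein that accumulates in G2 phase (GRCh38, chr1:214603195-214664588, plus strand). Its levels in the control libraries 1 to 5 were 8.33, 9.76, 7.11, 8.12 and 5.61 FPKM. At 1 µM they were 1.10, 3.66, 3.60, 3.67 and 3.50 FPKM. Every library at 1 µM lay below every control library. The levels were 5.70, 9.497, 7.67, 8.36 and 5.54 FPKM at 100 pM, within the control range or just under it. At 10 nM they were 5.29, 7.22, 3.88, 7.99 and 3.82 FPKM. Of these, 7.22 and 7.99 lay within the control range, and 3.88 and 3.82 were the libraries that stood apart. The difference at 1 µM was -1.14 on the log2 scale (SE 0.26, adjusted p = 0.0186, limma), and the trend was -0.38 per step (SE 0.08, adjusted p = 0.00915, limma). CENPF passed at 1 µM in 18 of 20 fits with 1 library left out, and in all 20 for the trend.

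KIF11 encodes Eg5, the motor that pushes spindle poles apart (GRCh38, chr10:92593286-92655395, plus strand). The control levels were 7.79, 7.76, 5.48, 5.35 and 2.78 FPKM, and those at 1 µM were 0.0947, 1.62, 2.49, 1.88 and 0.626 FPKM. The ranges did not overlap, and the mean at 1 µM was 0.230 times that of the control. At 10 nM the levels were spread from 0.603 to 6.83 FPKM, with the 2 libraries that stood apart lowest. The difference at 1 µM was -1.60 (SE 0.40, adjusted p = 0.0306, limma) and the trend -0.53 per step (SE 0.13, adjusted p = 0.0147, limma). KIF11 passed at 1 µM in 14 of 20 fits with 1 library left out (adjusted p up to 0.102, limma) and in all 20 for the trend. At 1 µM it did not pass with a pseudocount of 0.1, nor with wider filters (adjusted p = 0.122 for genes above 0 in at least 5 libraries and 0.154 with no filter, limma). A further transcript in the same assembled locus carries no gene name. The named transcript held all of the locus in control cells and 48.6% of it at 1 µM. Summed over the locus, KIF11 had 5.83 ± 2.08 FPKM in control and 2.76 ± 0.868 at 1 µM, the difference was -0.83 (SE 0.27) and it did not pass (adjusted p = 0.0681, limma), while the trend did (-0.29 per step, SE 0.08, adjusted p = 0.0259, limma).

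For CENPF and KIF11, and for 2 genes with a falling trend, TOP2A and CCNA2, the sequence just upstream of the gene start is shown because mitotic genes share 2 promoter elements, the CCAAT box and the cell cycle genes homology region (CHR), which MuvB complexes bind. The sequences are from RefSeq (GRCh38.p14), 5′ to 3′ on the strand of the gene, and give that part of the 250 bases before the RefSeq gene start which lies outside the transcripts of the deposited annotation. Capitals mark CCAAT and the CHR (TTTGAA or TTCGAA) on either strand. The regions are chr1:214602945-214603194 (plus strand) for CENPF, chr10:92592880-92593129 (plus) for KIF11, chr17:40417951-40418146 (minus) for TOP2A and chr4:121823934-121824133 (minus) for CCNA2.
CENPF: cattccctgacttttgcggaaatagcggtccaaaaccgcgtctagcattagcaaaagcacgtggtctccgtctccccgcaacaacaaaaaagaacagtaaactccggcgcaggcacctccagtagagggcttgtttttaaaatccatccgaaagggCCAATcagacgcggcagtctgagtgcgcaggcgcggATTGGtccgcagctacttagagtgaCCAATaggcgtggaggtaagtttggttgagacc
KIF11: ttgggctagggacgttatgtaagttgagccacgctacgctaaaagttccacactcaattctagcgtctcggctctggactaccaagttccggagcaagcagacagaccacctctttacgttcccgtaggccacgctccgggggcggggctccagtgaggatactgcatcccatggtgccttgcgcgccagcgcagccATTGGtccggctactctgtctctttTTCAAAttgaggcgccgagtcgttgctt
TOP2A: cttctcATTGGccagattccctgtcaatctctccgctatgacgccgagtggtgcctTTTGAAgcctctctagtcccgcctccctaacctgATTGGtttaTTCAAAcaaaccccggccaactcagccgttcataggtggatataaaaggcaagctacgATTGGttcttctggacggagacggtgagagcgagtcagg
CCNA2: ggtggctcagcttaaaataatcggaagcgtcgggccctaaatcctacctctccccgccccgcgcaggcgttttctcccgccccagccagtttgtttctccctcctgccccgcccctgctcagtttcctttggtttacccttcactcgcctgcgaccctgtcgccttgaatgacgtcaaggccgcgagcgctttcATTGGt

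In these stretches CENPF held 3 CCAAT matches and no CHR match, KIF11 had 1 of each, TOP2A had 3 CCAAT and 2 CHR matches, and CCNA2 had 1 CCAAT match. RefSeq windows of 300 bases (250 before and 50 after the gene start, the first listed where a gene has several) were matched by symbol for 31 of the 40 genes. CCND1, CCNE2, CDK2, MCM4, MCM5, AURKA, UBE2C, BIRC5 and TPX2 had no entry. A CCAAT box stood in 23 of the 31 windows (74.2%) and in 35.7% of all 27305 windows. A CHR stood in 12 (38.7%) against 16.6%, and both elements in 11 (35.5%) against 6.58%. An E2F site (the letters TTCCCGC, or alternatively TTGGCGC, or alternatively TTGCCGC, or alternatively TTCGCGC, on either strand) stood in 13 (41.9%) against 13.1%. CCAAT boxes were found in the windows of all 6 genes with a falling trend that had an entry, AURKB, CCNA2, CENPF, KIF11, KIF20A and TOP2A. A CHR stood only in those of CENPF (after the gene start), KIF11 and TOP2A, and none of the 6 windows held an E2F site. A match of letters is a description of these windows and was not tested for binding.

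Of the 2 proliferation markers, TOP2A, which relieves the torsion of replicating DNA and separates sister chromatids, passed the trend (GRCh38, chr17:40388516-40417950, minus strand). Its control levels were 32.2, 31.4, 20.4, 24.9 and 12.5 FPKM, and the levels at 1 µM were 5.86, 13.1, 10.8, 16.7 and 10.2 FPKM. The groups overlapped only through control replicate 5, one of the libraries that stood apart. At 100 pM the levels ran from 16.8 to 30.6 FPKM (median 26.04) and at 10 nM from 10.8 to 27.8 (median 17.9). The trend was -0.365 per step (SE 0.10, adjusted p = 0.0304, limma), and the difference at 1 µM was -1.03 (SE 0.30, adjusted p = 0.0819, limma). MKI67 had 5.13 ± 2.54 FPKM at 1 µM and 10.7 ± 3.24 in control, a difference of -1.05 (SE 0.37) that did not pass (adjusted p = 0.184, limma).

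**Figure D2:**
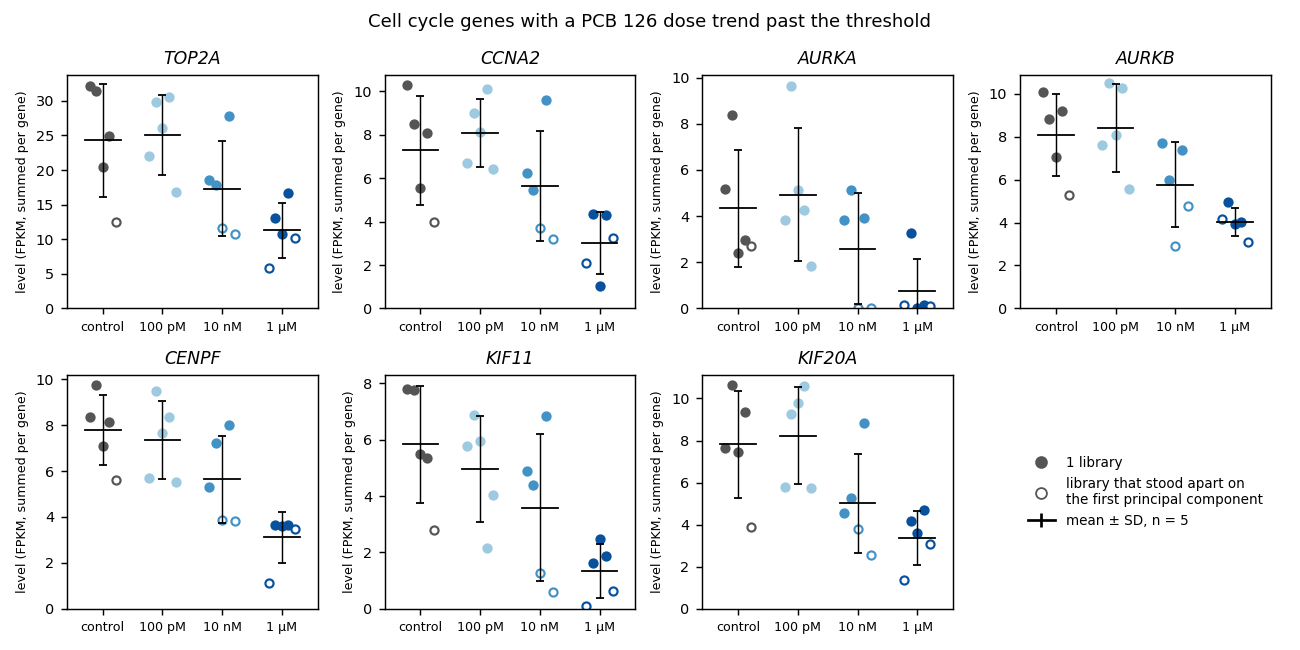
Level of each of the 7 genes with a falling dose trend past the threshold, in FPKM summed per gene, in every control and PCB 126 library (x axis). Points are libraries, hollow where the library stood apart on the first principal component, and lines are means with SD (n = 5). For CENPF, KIF11 and AURKB no library at 1 µM reaches the lowest control library.

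Cyclins and kinases of G2 and M phase were lower at 1 µM in 4 of 5 genes, a share like the 79.2% of all genes tested. CCNA2 encodes cyclin A2, the partner of CDK2 in S phase and of CDK1 in G2 (GRCh38, chr4:121816444-121823933, minus strand). Its levels were 10.3, 8.49, 5.54, 8.06 and 4.002 FPKM in control and 2.12, 4.35, 1.04, 4.30 and 3.25 FPKM at 1 µM. Control replicate 5 again lay within the range of the exposed group, and the other 4 controls lay above it. The levels at 100 pM were 6.40 to 10.1 FPKM (median 8.15) and those at 10 nM 3.22 to 9.60 (median 5.44). The trend was -0.37 per step (SE 0.10, adjusted p = 0.0252, limma), and the difference at 1 µM of -1.08 (SE 0.30) did not pass (adjusted p = 0.0632, limma). CCNB1 was 0.596 times and the phosphatase gene CDC25C 0.400 times the control mean at 1 µM (2-sided exact permutation p = 0.0397 and 0.0317).

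CDK1, the kinase that drives entry into mitosis, had only 1.83 ± 1.31 FPKM in control under its name and 1.11 at 1 µM, a difference of -0.37 (SE 0.37, adjusted p = 0.637, limma). Most of its locus was held by 1 assembled transcript without a gene name, and the named transcripts made up 24.6% of the locus in control. Summed over the locus, the control levels were 9.62, 10.6, 5.11, 7.78 and 4.16 FPKM and those at 1 µM 1.91, 3.80, 3.08, 4.79 and 3.24 FPKM. The difference was then -0.92 (SE 0.28, adjusted p = 0.0464, limma). CDK1 therefore fell at 1 µM when its unnamed transcript was counted and did not pass when it was not.

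Among the mitotic kinases and checkpoint genes, AURKA and AURKB had falling trends. AURKB encodes the kinase of the chromosomal passenger complex (GRCh38, chr17:8204733-8210600, minus strand). Its levels were 10.1, 8.82, 7.07, 9.20 and 5.28 FPKM in control and 4.17, 4.95, 3.93, 4.01 and 3.11 FPKM at 1 µM. The ranges did not overlap (2-sided exact permutation p = 0.00794, the smallest that 5 against 5 libraries allow). The trend was -0.30 per step (SE 0.08, adjusted p = 0.0304, limma), and the difference at 1 µM of -0.83 (SE 0.25) did not pass over all genes (adjusted p = 0.0899, limma). At 10 nM the levels ran from 2.91 to 7.71 FPKM (median 6.00) and at 100 pM from 5.57 to 10.5 (median 8.08).

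AURKA encodes the centrosomal kinase that is activated by TPX2 on spindle microtubules (GRCh38, chr20:56369389-56392337, minus strand). Its levels were 5.18, 8.39, 2.42, 2.96 and 2.70 FPKM in control and 0.145, 3.26, 0.00992, 0.144 and 0.113 FPKM at 1 µM. At 1 µM 4 libraries were close to 0 and replicate 2 was within the control range. At 10 nM, 3 libraries had 3.82 to 5.14 FPKM and the 2 that stood apart had 0 and 0.0370 FPKM. The trend was -0.63 per step (SE 0.16, adjusted p = 0.0217, limma), and the difference at 1 µM of -1.77 (SE 0.50) did not pass (adjusted p = 0.0635, limma). The named transcripts held 66.6% of the AURKA locus in control and 23.1% at 1 µM. Summed over the locus, AURKA had 6.50 ± 2.15 FPKM in control and 3.18 ± 0.953 at 1 µM, and the trend was -0.30 per step (SE 0.09, adjusted p = 0.0304, limma). The drop to near 0 was thus a drop of the named transcripts, while the locus as a whole was at 3.18 FPKM.

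The checkpoint kinases BUB1 and BUB1B were 0.511 and 0.466 times their control means at 1 µM, and BIRC5, which encodes survivin, was 0.564 times. Their differences were -0.80 (SE 0.30), -0.89 (SE 0.30) and -0.66 (SE 0.27), and none passed over all genes (adjusted p = 0.209, 0.155 and 0.264, limma). CDC20, the activator of the APC/C, had 5.52 ± 2.97 FPKM in control and 4.86 at 1 µM, a difference of -0.05 (SE 0.40) with a 95% interval from -0.87 to 0.77. Its named transcripts held 50.2% of the locus in control and 82.7% at 1 µM. Over the locus, its difference at 1 µM was -0.78 (SE 0.27, adjusted p = 0.104, limma) and its trend -0.30 per step (SE 0.09, adjusted p = 0.0239, limma). PLK1, a kinase of mitotic entry and exit, did not pass the variance filter and was 0.516 times the control mean (2-sided exact permutation p = 0.0635).

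By gene name, all 4 spindle and kinetochore genes had an unadjusted p under 0.05 at 1 µM (limma). Their median difference, -1.37, was the lowest of the 8 groups of genes. Summed over the locus, the differences were smaller for KIF11 (-0.83) and TPX2 (-1.05) and were -1.10 for CENPF and -1.01 for KIF20A. The 2 proliferation markers had -0.96 (MKI67) and -1.03 (TOP2A) over their loci. KIF20A encodes a kinesin of cytokinesis (GRCh38, chr5:138178719-138187715, plus strand). Its levels were 7.66, 10.7, 7.46, 9.37 and 3.91 FPKM in control and 1.35, 4.18, 3.61, 4.69 and 3.07 FPKM at 1 µM. The groups overlapped through control replicate 5 alone. The trend was -0.37 per step (SE 0.10, adjusted p = 0.0264, limma), and the difference at 1 µM was -1.01 (SE 0.30, adjusted p = 0.0854, limma).

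TPX2, a spindle assembly factor, had the same direction with a wide spread. Its levels were 13.3, 11.6, 8.56, 10.97 and 4.37 FPKM in control and 0, 6.62, 4.65, 5.43 and 0.269 FPKM at 1 µM. The lowest 2 of these exposed libraries were those that stood apart. The difference was -1.66 (SE 0.56, adjusted p = 0.147, limma), and the trend of -0.60 per step (SE 0.18) did not pass (adjusted p = 0.0563, limma). Over its locus, which has 3 assembled transcripts without a name, TPX2 had 12.3 ± 3.88 FPKM in control and 5.37 ± 1.64 at 1 µM, and it fell (-1.05, SE 0.28, adjusted p = 0.0201, limma).

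**Figure D3:**
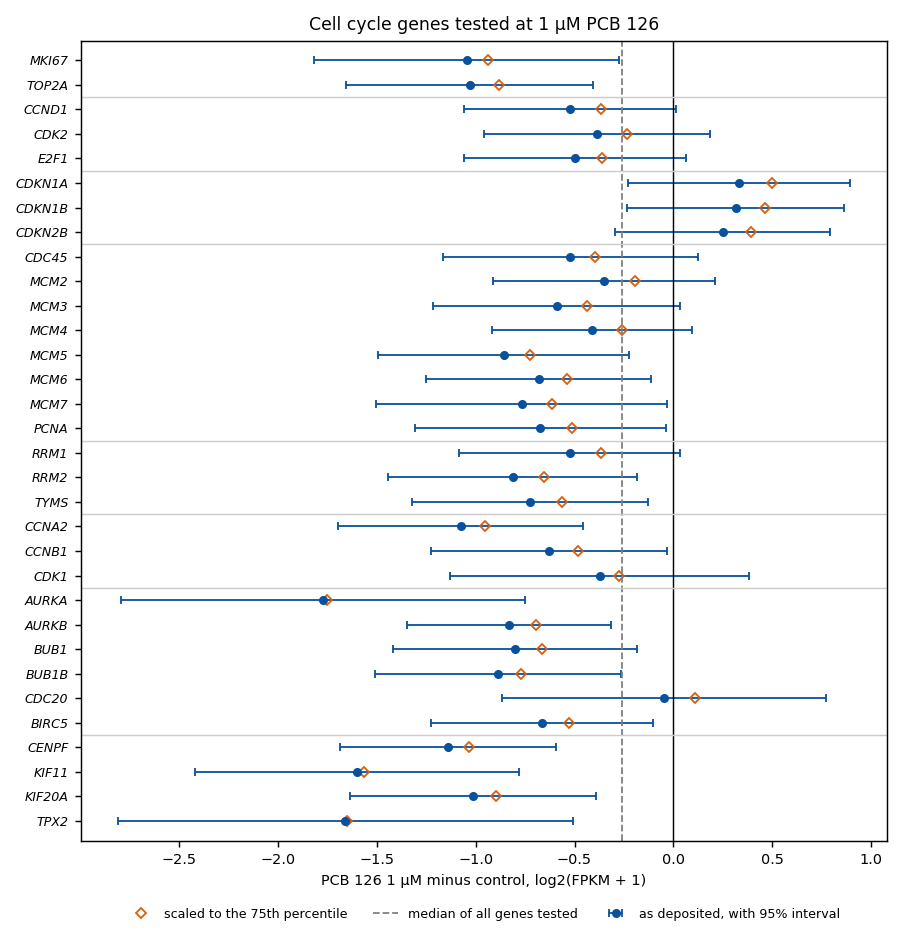
Difference between 1 µM PCB 126 and control in mean log2(FPKM + 1) (x axis) for the 32 genes tested, in order of role. Filled points are the values as deposited with 95% intervals, open diamonds the values after scaling each library to its 75th percentile, and the dashed line is the median of all genes tested, -0.26. AURKA (-1.77), TPX2 (-1.66) and KIF11 (-1.60) lie farthest to the left, and CDKN1A, CDKN1B and CDKN2B lie to the right of 0 under both scalings. Summed over their loci (not drawn), AURKA had -0.83, TPX2 -1.05 and KIF11 -0.83.

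Genes of replication and nucleotide supply were lower at 1 µM, with median differences of -0.63 and -0.73. The G2 and M phase group had -0.63, the mitotic kinase and checkpoint group -0.82 and the spindle group -1.37. These medians are by gene name, and the order of the groups rests on that. Summed over the locus, the difference was -0.92 for CDK1, -0.78 for CDC20, -0.83 for AURKA, -0.83 for KIF11 and -1.05 for TPX2. The MCM2 to MCM7 genes encode the replicative helicase, and their mean levels at 1 µM were between 0.454 (MCM5) and 0.728 (MCM4) times those of the control. Their differences ran from -0.86 (MCM5, SE 0.31) to -0.35 (MCM2, SE 0.27), and none passed over all genes. MCM5 and MCM6 differed in the exact permutation test (2-sided p = 0.0397 and 0.0476), as did MCM4 (p = 0.0317). The licensing factor gene CDT1 was 0.425 times the control mean (2-sided exact permutation p = 0.0317) and did not pass the variance filter. CDC6, which loads the helicase, was 0.61 times and CDC45, a part of the moving helicase, 0.551 times the control mean, and neither differed beyond its spread (2-sided exact permutation p = 0.119 and 0.167).

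PCNA had 29.6 FPKM at 1 µM and 49.5 in control, a difference of -0.67 (SE 0.31, adjusted p = 0.332, limma). RRM2 had 19.7 against 37.4 FPKM, a difference of -0.81 (SE 0.31, adjusted p = 0.212, limma), and its partner subunit RRM1 10.2 against 15.8 (-0.53, SE 0.27, adjusted p = 0.399, limma). TYMS, which makes the thymidine nucleotide, had 21.6 against 37.7 FPKM (-0.73, SE 0.29, adjusted p = 0.247, limma). In sum, the 3 enzymes had 90.9 ± 33.6 FPKM in control and 51.5 ± 10.3 at 1 µM, with 1 control library, replicate 5 at 42.8 FPKM, inside the range of the exposed group.

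In G1, the 3 genes tested had a smaller median difference at 1 µM, -0.50. CCND1, the cyclin that couples growth signals to CDK4 and CDK6, had 17.4 FPKM in control, 11.2 at 10 nM and 11.8 at 1 µM, and was the member with the smallest exact p at 10 nM (2-sided exact permutation p = 0.0397). CDK2 (-0.39, SE 0.28) and E2F1 (-0.50, SE 0.27) did not pass at 1 µM. CCNE2, a cyclin of the G1 to S transition, had levels of 1.71, 2.78, 2.94, 1.87 and 1.58 FPKM in control and 0.337, 1.08, 1.35, 0.487 and 0.542 at 1 µM, without overlap (2-sided exact permutation p = 0.00794), and the related CCNE1 was 0.824 times the control mean (p = 0.73, exact permutation); the difference between these 2 genes was not tested. Of all genes tested, 1.64% had no overlap and a lower level at 1 µM, and among the 32 cell cycle genes tested these were AURKB, CENPF and KIF11. CCNE2 was not among those tested, since it did not pass the variance filter. Over its locus it passed at 1 µM (-1.01, SE 0.28, adjusted p = 0.0245, limma).

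The 3 inhibitors of cyclin-dependent kinases were the only group with a median above 0 at 1 µM, 0.31 on the log2 scale. CDKN1A, which encodes p21, had levels of 183.3, 180.7, 167.7, 132.0 and 86.4 FPKM in control and 151.0, 215.5, 214.9, 216.7 and 133.7 FPKM at 1 µM. The 3 highest exposed libraries lay above all controls and the 2 lowest, those that stood apart, lay within their range. The differences were 0.33 (SE 0.27) for CDKN1A, 0.31 (SE 0.27) for CDKN1B and 0.25 (SE 0.26) for CDKN2B, which encodes p15, and none passed (adjusted p = 0.578, 0.591 and 0.658, limma). After scaling each library to its 75th percentile, CDKN1A passed with a difference of 0.50 (SE 0.14, adjusted p = 0.0413, limma). After quantile normalization all 3 passed, with differences of 0.58, 0.54 and 0.48. These scalings moved the median of all genes at 1 µM from -0.26 to -0.12 and -0.04, and the median of the 32 cell cycle genes from -0.68 to -0.53 and -0.47.

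**Figure D4:**
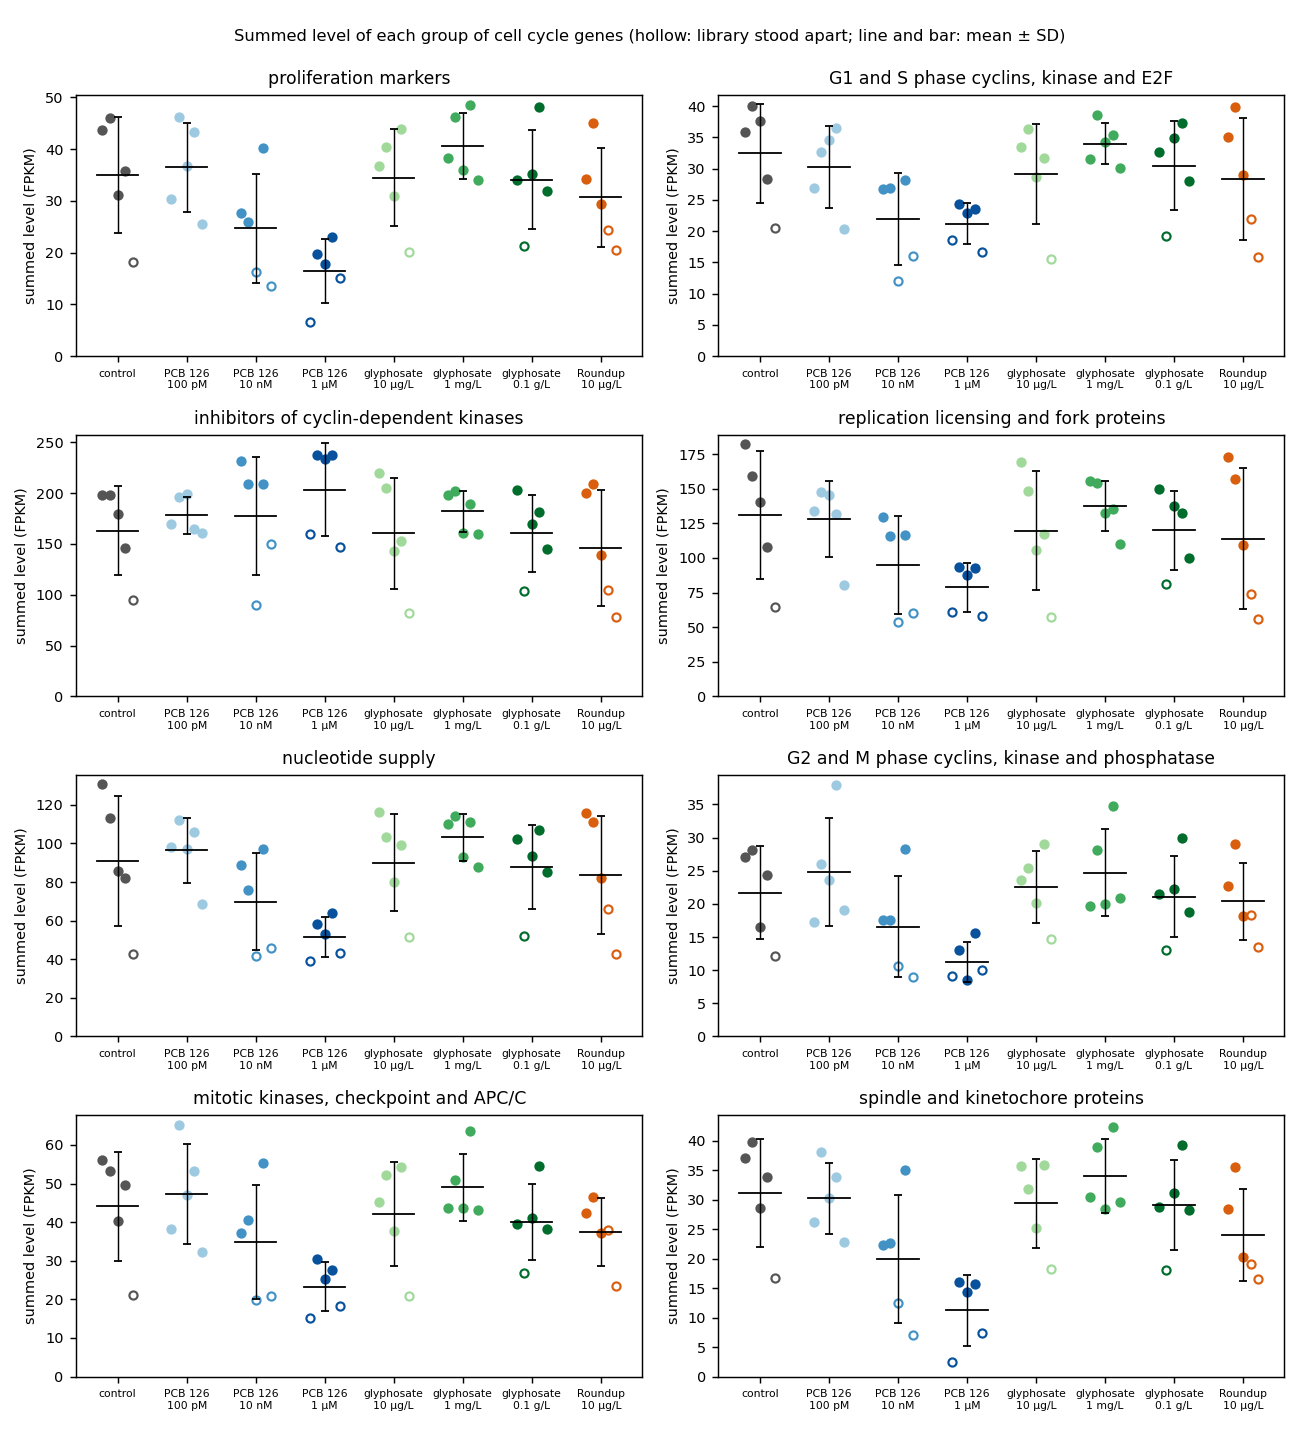
Summed level in FPKM (y axis, from 0) of each of the 8 groups of cell cycle genes in every library of the 8 treatment groups (x axis). Points are libraries, hollow where the library stood apart, and lines are means with SD (n = 5). At 1 µM PCB 126 the spindle group has a mean of 11.2 FPKM against 31.2 in control, while the inhibitor group has 203.1 against 163.1. The inhibitor libraries overlap (94.4 to 198.1 FPKM in control, 146.7 to 237.6 at 1 µM). CDKN1A makes up most of that sum (150.0 and 186.4 FPKM), and none of the 3 inhibitors passed. Transcripts without a gene name, which held part of the KIF11 and TPX2 loci, are not in these sums.

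The lower concentrations of PCB 126 gave no call. At 100 pM, 15 genes were below and 25 above the control mean, none of the 32 passed (0% of all genes), and none had an unadjusted p under 0.05 (1.19% of all genes, limma). At 10 nM, 34 of 40 were below control and none passed (0.205% of all genes), and CCND1 and MCM4 had an unadjusted p under 0.05 (4.85% of all genes, limma). Mean levels fell at every step from control to 1 µM for 15 of the 40 genes and rose at every step for CDKN1B alone. The level at 1 µM was the lowest of the 4 groups for 30 genes and the highest for the 3 inhibitors. The median differences of the 32 genes were 0.04 at 100 pM and -0.41 at 10 nM, beside 0.07 and -0.21 for all genes tested.

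Other genes of the same processes were read beside these. Of 57 further G2 and M phase genes, 46 were tested, and all 46 had a lower mean at 1 µM (79.2% of all genes did), with a median of -0.70. None of the 46 passed at 1 µM (1.87% of all genes did), and 33 had an unadjusted p under 0.05 with a lower level (11.3% of all genes). In the trend 7 fell, against 2.82% of all genes. Among the 7, SMC4, a condensin subunit, had -0.41 per step (SE 0.10, adjusted p = 0.0240, limma), SPC24, a part of the outer kinetochore, -0.34 (SE 0.09, adjusted p = 0.0252), CENPA, the centromeric histone, -0.34 (SE 0.09, adjusted p = 0.0253) and LMNB1, which encodes lamin B1, -0.32 (SE 0.08, adjusted p = 0.0280). Of 40 further S phase genes, 27 were tested, and none passed at 1 µM. An unadjusted p under 0.05 was found for 8, counted without regard to direction. Over all genes, 11.3% had such a p with a lower level, which is not a like comparison. GMNN, the inhibitor of CDT1, fell in the trend (-0.33 per step, SE 0.08, adjusted p = 0.0215, limma), as did 2.82% of all genes. Of 43 other cyclins, kinases, inhibitors, pocket proteins and E2F factors, 32 were tested. CDKN2C alone passed, in the trend and with a lower level (-0.35 per step, SE 0.08, adjusted p = 0.0182, limma). Over all genes, 2.82% had such a falling trend. CDKN2C also encodes an inhibitor of cyclin-dependent kinases, so not all inhibitor genes had the direction of CDKN1A, CDKN1B and CDKN2B.

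Genes that p53 induces after DNA damage include CDKN1A, and 22 of 23 others were tested. None passed at 1 µM, where 6 had an unadjusted p under 0.05, counted without regard to direction. The differences of the 22 ran from -0.99 to 1.19. The share of all genes given here, 11.3%, is for such a p with a lower level only, so it is not a like comparison. In the trend GDF15 rose (0.39 per step, SE 0.11, adjusted p = 0.0400, limma) and PLK3 fell (-0.39 per step, SE 0.09, adjusted p = 0.0144, limma). Over all genes, 0.882% rose and 2.82% fell in the trend. The median of the 22 at 1 µM was -0.29, close to that of all genes.

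Cell type markers moved at the same concentration. The summed level of 15 hepatocyte markers was 16860 to 27070 FPKM in control, 19620 to 29770 at 100 pM, 10040 to 26420 at 10 nM and 6990 to 17180 at 1 µM. At 1 µM, 3 of 15, APOA2, FGB and TTR, fell past the threshold, against 1.22% of all genes. The sum of 9 biliary and progenitor markers was 279.1 to 535.5 FPKM in control, 255.6 to 556.3 at 100 pM, 172.3 to 380.9 at 10 nM and 164.7 to 285.0 at 1 µM, with none of 4 tested past the threshold at 1 µM and EPCAM at 0 in 33 of 40 libraries. The sum of 13 mesenchymal markers was 42.6 to 95.02 FPKM in control, 86.5 to 102.8 at 100 pM, 53.3 to 159.3 at 10 nM and 51.5 to 194.1 at 1 µM. Most of this sum was LUM (up to 168.0 FPKM), and the median difference of the 7 members tested was -0.48 at 1 µM. Within this list COL3A1 fell at 1 µM, and COL1A2 was at 0 in 29 libraries. The sum of 8 endothelial markers was low throughout, with 0.918 to 5.26 FPKM in control and 0.625 to 1.51 at 1 µM. In bulk RNA, fewer dividing cells and less RNA of these genes per cell cannot be told apart, and the part of cell composition in the cell cycle result was not tested.

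Glyphosate and Roundup gave no call in the cell cycle genes. Of the 40 genes, 33 were tested here among 9533, and none passed at 10 µg/L, 1 mg/L or 0.1 g/L of glyphosate, with Roundup, in the dose trend or in the F-test, as was the case for all genes tested (0%). At an unadjusted p under 0.05, limma gave no gene at 10 µg/L (0.997% of all genes), CDC20 at 1 mg/L (1.31%), and CDC20 and BUB1B at 0.1 g/L (0.881%). It gave TPX2 with Roundup (1.73%), CDC20 in the trend (1.02%) and none in the F-test (1.36%). These are by gene name. Over the locus, CDC20 differed by 0.04 (SE 0.26) at 0.1 g/L and TPX2 by -0.22 (SE 0.26) with Roundup. BUB1B, whose locus also holds PAK6, differed by -0.36 (SE 0.26) at 0.1 g/L. Median differences of the 33 genes were -0.07, 0.17, -0.06 and -0.18 for the 3 glyphosate doses and Roundup, beside -0.04, 0.14, -0.01 and -0.18 for all genes. At 1 mg/L 36 of 40 genes were above the control mean, and with Roundup 36 of 40 were below it. All of these comparisons share the 5 control libraries, also with PCB 126, so values are given side by side only.

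TOP2A had 24.1 ± 6.49, 27.9 ± 4.78 and 23.3 ± 6.98 FPKM at the 3 glyphosate doses and 21.2 ± 5.87 with Roundup, beside 24.3 ± 8.18 in control. CENPF had 7.57 ± 1.95, 8.44 ± 1.58 and 7.26 ± 1.60 FPKM with glyphosate and 6.45 ± 1.95 with Roundup, beside 7.79 ± 1.54 in control. The 95% intervals of the CENPF difference reached from -0.52 to 0.41 at 10 µg/L, from -0.36 to 0.57 at 1 mg/L, from -0.56 to 0.37 at 0.1 g/L and from -0.72 to 0.21 with Roundup. The largest difference at 1 mg/L was that of CDC20, which had 9.66 FPKM at 1 mg/L against 5.52 in control (0.84, SE 0.31, unadjusted p = 0.0112, adjusted p = 0.963, limma), and over its locus the difference was 0.10 (SE 0.26). CCNB2 did not overlap between glyphosate 10 µg/L (0.151 to 0.405 FPKM) and control (0.101 to 0.133), at levels near 0 in both groups (2-sided exact permutation p = 0.00794). It was not among the genes tested, of which 0.0105% had no overlap and a higher level.

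Roundup and glyphosate were compared directly at the same labelled dose of 10 µg/L. None of the 33 genes passed (0% of all genes) and none had an unadjusted p under 0.05 (1.27% of all genes, limma). The median difference, Roundup minus glyphosate, was -0.12, beside -0.14 for all genes tested. TOP2A differed by -0.17 with a 95% interval from -0.72 to 0.37, and KIF11 by -0.23 with an interval from -0.76 to 0.30, so differences of up to these bounds remain possible.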

How the data were processed

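RNA-seq values of 40 libraries were used, in a PCB 126 table of 20 and a glyphosate table of 25, and both tables repeat the same 5 controls with identical values. Reads had been aligned by the authors with HISAT2 (GRCh38), and StringTie had served for assembly and quantification against Ensembl gene models. For each library the authors deposited FPKM values, 234960 transcripts long, with no pooling. Versions of these tools are not given in the sources used here. Some deposited columns hold tiny negative values and were checked as a score rather than as FPKM, the unit the authors gave them; the negatives (4 in the first and 6 in the second table) were replaced by 0.

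FPKM were summed per gene name (35782 assembled transcripts carry none). Genes with a variance of FPKM above 1 across a table were tested on log2(FPKM + 1) with limma 3.58.1 in R 4.3.3, all groups of a table in one fit, with Benjamini-Hochberg adjustment and a threshold of 0.05. Single genes were compared with 2-sided exact permutation tests. The fit was tested on simulated data. Python 3.11.15 (numpy 2.4.6, pandas 2.3.3) did the remaining computation, and matplotlib 3.10.9 drew the plots. FPKM are not counts, so no count test was run, and the deposited tables do not give the depth; read numbers from other sources were not used here.

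All 40 genes could be named, with full values for those past the threshold, and up to 4 genes of each comparison list. The members and lists were chosen with earlier results of these data known. Alternatives were another pseudocount, other filters, 2 scalings, a plain linear model with library size as a term, array weights, a replicate block, a fit of 2 groups, sums over the assembled locus, the most abundant transcript, one fit on all 40 libraries and leaving out each library. Leaving out the libraries that stood apart, and 2 combinations with scaling, were added after the data were seen.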

Additional observations from a re-analysis of the deposited data

Results flagged for a closer look

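In each of the 8 groups, the highest and lowest library of each of the 40 genes was compared with the rest by Dixon's ratio (critical value 0.71 for 5 libraries). Of 320 groups, 14 were marked (4.38%), while chance marks about 1 in 20. Among genes past the threshold, AURKA in 1 µM replicate 2 had 3.26 FPKM and the next highest library 0.145, and CENPF in 1 µM replicate 1 had 1.10 FPKM and the next lowest 3.50. At 100 pM, replicate 5 was lowest for CDK2 (4.96 FPKM), MCM2 (4.86) and PCNA (32.6), and replicate 4 was highest for CDK1 (5.27). At 1 µM, RRM1 was lowest in replicate 5 (7.83 FPKM) and PLK1 highest in replicate 2 (2.66). In control, CCNE1 was highest in replicate 1 (2.17 FPKM). With glyphosate, CDC20 was highest in replicate 4 of 10 µg/L (12.3 FPKM), and CDK1 (4.13) and UBE2C (0.447) in replicate 4 of 1 mg/L. With Roundup, CCNB2 was lowest in replicate 5 (0.0543 FPKM) and PLK1 highest in replicate 4 (2.96).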

How the results depend on the processing

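Counts of cell cycle genes past the threshold are given for 1 µM against control, the PCB 126 trend and the F-test across its groups, which were 2, 7 and 0 as reported. They were 1, 7 and 0 with a pseudocount of 0.1, and 1, 2 and 0 both for genes above 0 in at least 5 libraries and with no filter. Scaling to the 75th percentile gave 10 (9 lower), 18 (16 lower) and 9, quantile normalization 18 (15 lower), 20 (17 lower) and 11, a plain linear model with library size as a term 10 (7 lower), 11 (8 lower) and 5, and array weights 21, 27 and 16. Calls over all genes at 1 µM and in the trend rose as well, from 182 and 361 to 593 and 906 (75th percentile), 1123 and 1290 (quantile), 830 and 891 (linear model) and 946 and 1289 (array weights). Sums over the assembled locus gave 7, 14 and 5 (397 and 671 over all genes), and with scaling 8, 18 and 15. The most abundant transcript gave 0, 0 and 0, and one fit on 40 libraries 7, 13 and 6. Without the libraries that stood apart the counts were 13, 15 and 1, and with scaling 18, 22 and 11. The fit of 2 groups gave 2 at 1 µM. Leaving out 1 library gave 0 to 11, 2 to 21 and 0 to 4, in each case highest without control replicate 5.

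Array weights called 9 genes for Roundup against control, 15 for Roundup against glyphosate and 19 in the F-test of that table, where Roundup replicate 3 received a weight of 30.4. The other alternatives gave 0 in the herbicide comparisons and all gave 0 at 100 pM and 10 nM. Of the calls over all genes at 1 µM, 119 of 182 were lower as reported, 346 of 593 after 75th-percentile scaling, 613 of 1123 after quantile normalization and 376 of 830 in the plain linear model. The trends of the 7 genes past the threshold, and the differences of CENPF and KIF11 at 1 µM, kept their direction under every alternative. Differences that did not pass could change direction. At 100 pM, KIF11 had a mean of 4.95 FPKM by name, below 5.83 in control, while its difference over the locus was 0.12 (SE 0.27).

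The replicate block by run of library numbers gave 8, 15 and 6 in the PCB 126 table (357 and 607 calls over all genes at 1 µM and in the trend). The correlation of deviations within a run had a median of 0.0634 (-0.0557 to 0.169), and 9 of 20 libraries were closest to their own run (0.0688, -0.17 to 0.36 and 18 of 25 in the glyphosate table), which is a hint from the data of a shared run. Since the labels give no replicate number and not every pair correlated above 0.1, the block was not used for the reported values. The cause of these changes was not tested.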
